A study of Mus musculus with 4 samples.

Results

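The genes described here were the developmental transcription factor genes of the Hoxa, Hoxb, Hoxc, Hoxd, Pax, Lhx, Gata, Tbx, Sox and Nkx families. They were chosen by name, as autosomal protein-coding genes of the GENCODE M21 annotation whose symbol starts with a family prefix and a digit. This gave 105 genes of 20807 autosomal protein-coding genes. ATAC-seq peaks within the gene body and 5 kb on each side formed 83 regions of the 71243 union regions, which are merged overlapping peaks of all 4 libraries. ATAC-seq marks open chromatin by the insertion of Tn5 transposase.

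The series profiled bone marrow-derived macrophages (BMDMs), grown for 6 to 8 days in medium with 20% L929-conditioned medium, which supplies the growth factor M-CSF. The WT group was H3f3a fl/fl H3f3b fl/fl without Cre, per the study's text. The H3.3cKO (cKO) group carried the same floxed alleles together with LysM cre/cre, so the genes for histone H3.3 are targeted for deletion in myeloid cells by Cre from the Lyz2 (LysM) locus. Both groups therefore carried the floxed alleles, and only the cKO group carried Cre. H3.3 is the histone H3 variant that is put into chromatin outside DNA replication. The labels gave 2 biological replicates per genotype and neither the age nor the sex behind a library, and the study used young adult mice of both sexes on a C57BL/6 background. The comparison asked which of these genes had open chromatin in macrophages and how the calls changed without H3.3.

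Developmental transcription factors bind DNA through conserved domains (homeodomain, paired box, zinc finger, T-box or HMG box) and set cell fate and body plan in the embryo. In cells of another lineage most of these genes are silent, and their CpG-rich promoters are typical targets of Polycomb repressors, often together with the activating mark H3K4me3. Some members act in blood cells: Hoxa9 and Gata2 in progenitors, Gata3 in lymphocytes and Sox4 in many tissues.

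The libraries held 51955 to 64939 peaks, and both replicates numbered 1 held fewer than both numbered 2. Read depth is unknown. A region was found at all 12 macrophage marker genes, 6 of 7 progenitor genes, 4 of 7 lymphoid genes, 5 of 9 erythroid, megakaryocyte and mast cell genes, 4 of 9 stroma genes and 3 of 5 endothelial genes. Among these, Col1a2, Col3a1 and Dcn of stroma, Cd3e of T cells and Hba-a1 and Hbb-bs of erythroid cells had none. In the same lists Klf1, Pf4, Cd79a, Cd3d, Col1a1, Pdgfra, Pdgfrb and Prrx1 had a region. A weak region over the exon of H3f3a that the study floxed (chr1:180811715-180812055) was called in both WT libraries, at percentiles 5.02 and 19.1, and in neither cKO library, while the other regions of H3f3a and H3f3b were called in all 4. At H3f3b, whose deletion the study describes as variable, the stronger region (chr11:116023771-116024892) had WT percentiles of 94.2 and 95.5 and cKO percentiles of 87.0 and 81.4. The strength of a peak is given as the percentile of its area (the area under the significance curve, from the peak caller) within its own list, from 0 for the weakest to 100 for the strongest.

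Stretches of sequence show examples of the regions that were called in 1 genotype only. Each is a window of 201 bases centred on the summit, on the plus strand, from the RefSeq assembly GRCm38, the same build as mm10. The first 3 were lost in cKO, meaning called in both WT and neither cKO library, and the capitals mark CG dinucleotides. They lay at an internal promoter of Sox6 (chr7:116031897-116032097, 22 CpGs), between Hoxd13 and Hoxd12 (chr2:74673073-74673273, 17 CpGs) and in an intron of the long form of Hoxa3 beside Hoxa6 and Hoxa7 (chr6:52211599-52211799, 17 CpGs). The fourth, also lost, lay in an intron of Sox5 (chr6:143871596-143871796) and held only 3 CpGs. It is shown because the lost regions of Sox5 differed from the other lost regions in base composition.
Sox6, lost: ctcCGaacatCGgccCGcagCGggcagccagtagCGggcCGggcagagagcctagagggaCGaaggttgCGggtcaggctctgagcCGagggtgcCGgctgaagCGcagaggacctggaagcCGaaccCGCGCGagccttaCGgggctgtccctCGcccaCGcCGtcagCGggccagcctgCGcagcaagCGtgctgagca
Hoxd13 and Hoxd12, lost: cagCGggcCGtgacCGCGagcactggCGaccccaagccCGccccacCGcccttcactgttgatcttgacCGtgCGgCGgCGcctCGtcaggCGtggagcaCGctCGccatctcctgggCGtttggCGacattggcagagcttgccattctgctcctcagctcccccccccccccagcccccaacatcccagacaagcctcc
Hoxa3, lost: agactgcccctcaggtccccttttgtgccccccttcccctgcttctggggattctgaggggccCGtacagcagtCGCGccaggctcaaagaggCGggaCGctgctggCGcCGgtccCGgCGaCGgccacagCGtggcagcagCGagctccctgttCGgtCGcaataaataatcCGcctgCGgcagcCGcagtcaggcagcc
Sox5, lost: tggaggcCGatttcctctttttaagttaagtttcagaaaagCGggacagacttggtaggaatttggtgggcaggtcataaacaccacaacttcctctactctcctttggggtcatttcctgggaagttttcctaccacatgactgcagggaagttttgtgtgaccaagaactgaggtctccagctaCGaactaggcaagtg
The last 2 windows were gained in cKO, meaning called in both cKO and neither WT library. Both lay in introns of Sox5, and the capitals mark the match to a macrophage factor motif, AP-1 (TGACTCA) at chr6:144689133-144689333 and C/EBP (TTGCNNAA) at chr6:144100997-144101197. The assembly marks 41.8% of the second window as repeat. The marks were chosen for each window and do not set gained from lost regions apart. The lost Sox5 window above also holds an unmarked match to PU.1 (GAGGAAGT). The C/EBP letters were in 3 of the 17 lost regions (17.6%), compared with 12.3% of all union regions. The gained region of Sox12, not shown, held none of the motifs searched.
Sox5, gained, AP-1: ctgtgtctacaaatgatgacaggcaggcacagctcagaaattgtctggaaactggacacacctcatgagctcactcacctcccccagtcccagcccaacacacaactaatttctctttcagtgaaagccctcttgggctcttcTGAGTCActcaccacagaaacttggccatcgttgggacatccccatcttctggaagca
Sox5, gained, C/EBP: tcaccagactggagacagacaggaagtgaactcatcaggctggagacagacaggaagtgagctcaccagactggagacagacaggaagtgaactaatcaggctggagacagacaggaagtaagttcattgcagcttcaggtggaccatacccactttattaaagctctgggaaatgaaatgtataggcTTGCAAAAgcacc

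Most developmental transcription factor genes had no called region in these macrophages. Of the 105 genes, 57 (54.3%) had none in any library, compared with 27.1% of all autosomal protein-coding genes. Their windows were shorter, with a median of 17.1 kb compared with 27.6 kb. The 39 Hox genes, which specify position along the body axis, had 18 genes with a region and 21 without. Hoxa was the most open cluster with 9 of 11 genes, followed by Hoxb with 4 of 10, Hoxc with 3 of 9 and Hoxd with 2 of 9. Among the other families, 3 of 9 Pax, 5 of 8 Lhx, 3 of 5 Gata, 7 of 12 Tbx, 8 of 18 Sox and 4 of 14 Nkx genes had a region. Genes with no region included Sox2, which acts in pluripotent and neural cells, Nkx2-5 of the heart, Tbx21 of T cells and Pax5 of B cells.

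Fewer of these genes had a called region in the cKO libraries. In WT, 41 and 45 member genes had a called region, and in cKO 30 and 31 had one. Both cKO libraries lay below both WT libraries (43 ± 2.83 in WT and 30.5 ± 0.707 in cKO, SD, n = 2; difference −12.5; exact two-sided permutation test, p = 0.333, the smallest p that 2 against 2 libraries allow). The difference was −8 with lists of equal length, −7 without a flank and −3.5 with peaks above the list median. Over all autosomal protein-coding genes the counts overlapped, with 14389 and 14837 genes in WT and 14275 and 14784 in cKO (exact permutation test, p = 0.667). Promoters, taken as the 1 kb before and the 100 bp after any annotated start of transcription (TSS), followed the same order. A called promoter was found at 12 and 13 member genes in WT, and at 9 and 8 in cKO (difference −4, exact permutation test, p = 0.333). The counts of all autosomal protein-coding genes with a called promoter overlapped. They were 11228 and 11522 in WT and 11041 and 11381 in cKO (exact permutation test, p = 0.667). In all, 10 members (9.52%, among them 7 Hox genes) had a region in both WT and in neither cKO library, against 0.836% of all genes, whereas 0 members had a region in both cKO and in neither WT library, against 0.644% of all genes. These 10 were Hoxa6, Hoxa7, Hoxa9, Hoxa10, Hoxa11, Hoxd12, Hoxd13, Gata2, Tbx3 and Sox30, and neighbouring Hox genes shared regions. The Hoxa genes among them rested on 3 lost regions, and Hoxd12 and Hoxd13 on 1. The share of genes thus counts some regions more than once.

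**Figure D1:**
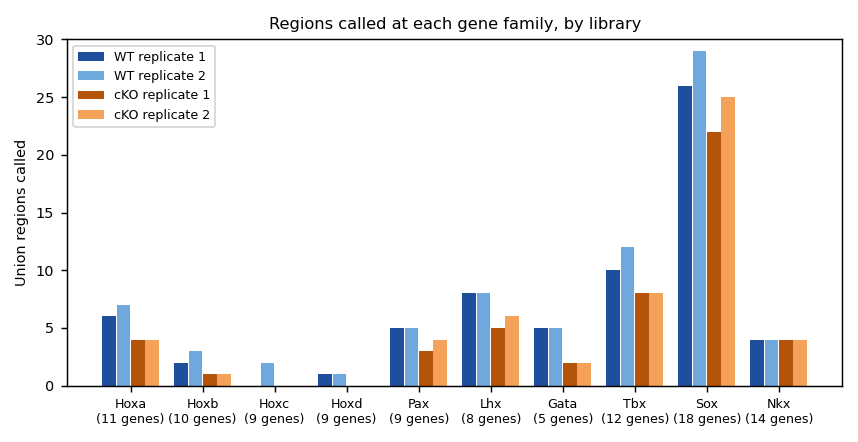
Union regions called at each gene family (vertical axis, number of regions) in each of the 4 libraries (bars). At every family except Nkx, with 4 regions in each library, both cKO bars were lower than both WT bars, apart from Hoxc, where WT replicate 1 also had 0.

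At the level of regions, 17 of the 83 were lost in cKO (20.5%), compared with 7.25% of all union regions. In the other direction, 3 of the 83 were gained (3.61%), compared with 3.72% of all union regions. A further 43 were called in all 4 libraries, and 20 had other patterns, of which 9 were called in WT replicate 2 only. Leaving out WT replicate 1, so that WT replicate 2 alone stood for WT, raised the lost count to 26 (31.7%), and that of all regions to 14.4%. None of the 17 had both WT percentiles above 50, so none remained lost when each list was limited to peaks above its median area. There, 2 other regions of 33 were lost (6.06%), compared with 7.06% of all regions. The higher lost share of the members was thus not seen among these stronger peaks. The lost regions ran from percentile 4.60 to 53.0 in single WT libraries.

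**Figure D2:**
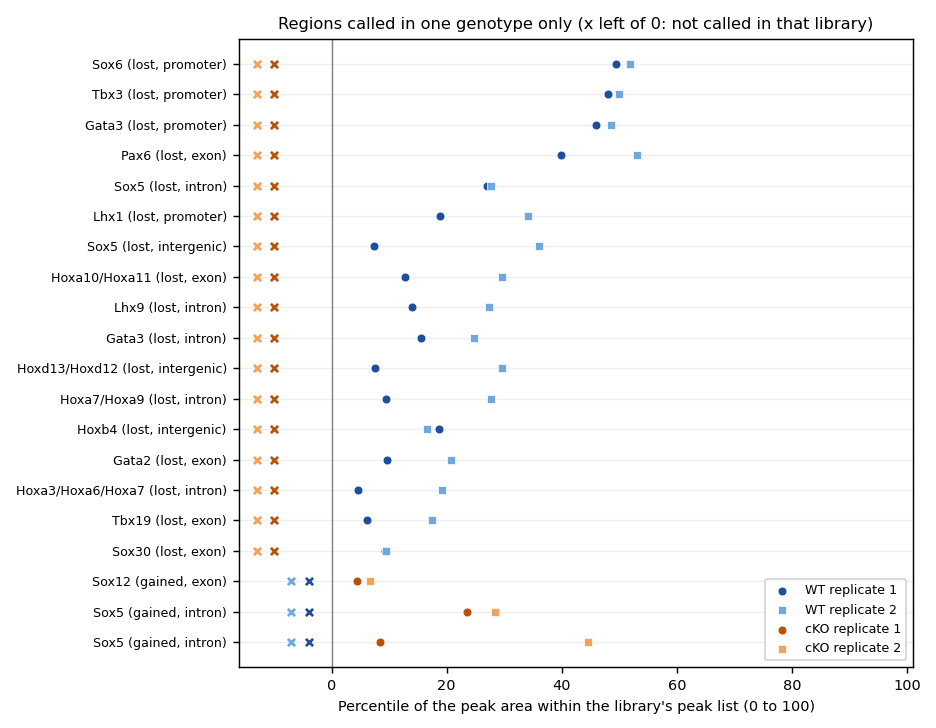
The 17 lost and 3 gained regions (rows, with the gene and the annotation class of the region's centre) by percentile of the peak area in each library (horizontal axis, 0 to 100). Circles and squares are libraries with a call, and crosses left of 0 are libraries without one. Sox6, Tbx3, Gata3 and Pax6 were the strongest lost regions, all between 39.8 and 53.0 in WT.

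The lost regions with the highest WT percentiles lay at promoters. The Sox6 region (chr7:116031674-116032474), shown above, had percentiles of 49.4 and 51.9 in WT. Sox6 represses embryonic globin genes and acts in cartilage. The Tbx3 promoter (chr5:119670313-119671044), of a factor of limb, heart and mammary development, had 48.0 and 49.9. A promoter of Gata3 (chr2:9878362-9879000), the T-helper and innate lymphoid factor, had 46.0 and 48.6. The region over a first exon and promoter of Pax6 (chr2:105676116-105676833), the master regulator of eye development, had 39.8 and 53.0. In these 4 regions both WT replicates were in the middle of their lists, and neither cKO list held a peak. Sox6, Gata3 and Pax6 each kept another region called in all 4 libraries, whereas the lost region was the only one of Tbx3.

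The Hox clusters had 13 regions, of which 5 were lost, 0 were gained and 4 were called in all 4 libraries. In Hoxa, the loss lay in the middle and posterior part of the cluster. The Hoxa3/Hoxa6/Hoxa7 region (chr6:52211618-52211856) had percentiles of 4.60 and 19.2 in WT, and the Hoxa7/Hoxa9 region (chr6:52221535-52221929) had 9.53 and 27.7. The region in an exon of Hoxa10 (chr6:52240437-52240684) had 12.8 and 29.7. In each of these, WT replicate 2 was higher than WT replicate 1 and no cKO library had a call. The Hoxa4 promoter (chr6:52191802-52192232) had 15.4 and 41.0 in WT and 11.7 and 32.0 in cKO, so that the genotypes overlapped.

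The other Hox clusters had few regions. Between Hoxd13 and Hoxd12, which act at the posterior end and in the limb bud, the only Hoxd region (chr2:74672752-74673274) was lost, with 7.64 and 29.6 in WT. Upstream of Hoxb4 (chr11:96314725-96315170), a factor of haematopoietic stem cell expansion, a region with 18.6 and 16.6 in WT was lost. The region over the Hoxb4 promoter (chr11:96318361-96319354) was called in all 4 libraries, but only the WT peaks reached the promoter itself. The region had WT percentiles of 54.5 and 65.4 and cKO percentiles of 44.6 and 43.5, with no overlap (difference −15.9, SE 7.40, limma adjusted p = 0.153). When a call required peaks to cover 50% of the region, it counted as lost. Hoxc had no region called in more than 1 library.

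Weaker lost regions lay at Gata, Lhx, Tbx and Sox genes. Gata2 lost its only region (chr6:88198506-88198874), in an exon 356 bp from a TSS and with 9.70 and 20.7 in WT. A second Gata3 region (chr2:9889277-9889718), in an intron, had 15.6 and 24.8. Lhx1, of kidney and head development, had 18.8 and 34.2 at its promoter (chr11:84522621-84523029). These 3 regions were of low rank in both WT libraries and were called in neither cKO library. Lhx9, of gonad development, had 14.0 and 27.4 in an intron (chr1:138841362-138842104). Tbx19, the pituitary factor of Pomc expression, had 6.21 and 17.5 in an exon (chr1:165138564-165138761). Sox30, of spermatids, had 9.29 and 9.50 near its start (chr11:45980410-45980816). The last 2 were among the weakest peaks of the WT lists. Sox5, which acts in cartilage and neurons, had a lost region of 7.33 and 36.0 beyond its end (chr6:143826680-143827164) and one of 27.0 and 27.6 in an intron (chr6:143871386-143872139).

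Gained regions were few and lay at Sox genes. In Sox12, a SoxC gene related to Sox4, an exonic region (chr2:152396105-152396547) had percentiles of 4.39 and 6.74 in cKO, near the limit of the peak caller. The Sox5 intron region with the C/EBP match (chr6:144100882-144101236) had 8.47 and 44.7, and the one with the AP-1 match (chr6:144689119-144689387) had 23.5 and 28.4. Sox5 and Sox6 are very long genes and took 1541 kb of the 4439 kb of windows and 20 of the 83 regions. Without them, which was tried after the data were seen, 14 of 63 regions were lost and 1 was gained.

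Regions that were called in all 4 libraries could be compared by strength. Of the 43, 20 had both cKO percentiles below both WT percentiles (46.5%), compared with 35.1% of the 44820 such regions in the genome. Another 6 had both above (14.0%), compared with 22.2% in the genome. For 35 of the 43 the nearest coding TSS was that of a member. Of these, 13 were lower (37.1%, near the share in the genome) and 5 higher (14.3%). For the other 8 the nearest TSS was that of another gene, and 7 of them were lower and 1 higher. In the fit of all regions, 5 of the 43 were lower in cKO by limma with Benjamini-Hochberg adjustment over all 44820 regions (11.6%, against 11.3% of all regions), and 0 were higher, against 5.68% of all regions. Without adjustment, 12 were lower and 2 higher at p under 0.05, against 19.4% and 10.6% of all regions. The share lower by limma was thus near that of all regions. Cutting the lists to equal length moved the median difference over all regions from −1.10 to 0.09 percentile points. Then 9 of 40 member regions were lower and 6 higher (7404 and 7409 of all regions, for which no share was computed with these lists). With quantile-normalized log2 areas 10 of the 43 were lower and 7 higher (8400 and 8210 of the 44820 regions). The count of 0 higher thus did not hold when list length was equalized. The WT libraries had a median percentile of 54.5 and 65.2 over the 43 regions, and the cKO libraries of 46.7 and 53.9, both below both WT values (difference −9.55; exact permutation test, p = 0.333), whereas over all 44820 regions the medians overlapped (59.1 and 65.0 in WT, 56.1 and 62.6 in cKO). The member medians overlapped between the genotypes as well without a flank (difference −4.97) and with the −log10 p at the summit (−4.95; exact permutation test, p = 0.667 in each). The difference was −4.32 with lists of equal length, −4.37 without WT replicate 2 and −4.88 without cKO replicate 1.

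**Figure D3:**
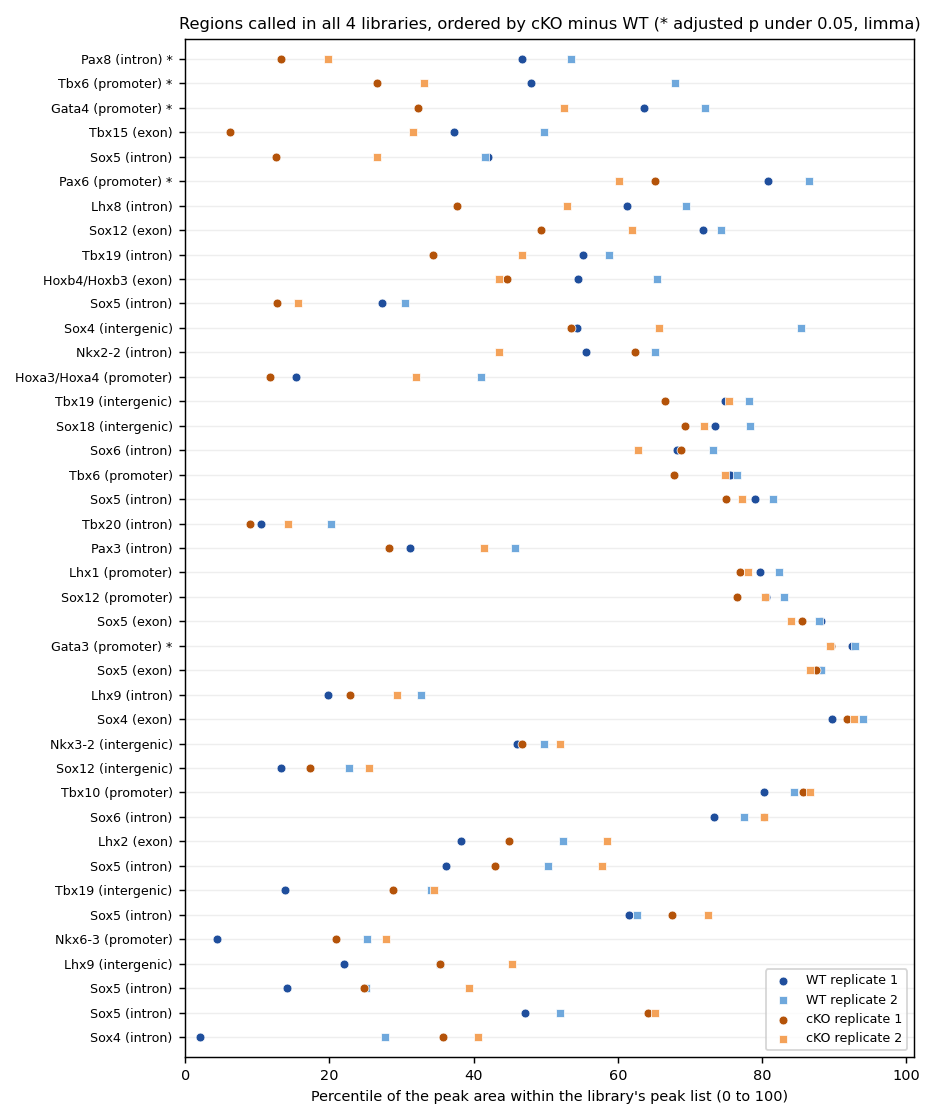
Regions called in all 4 libraries, with those of 1 gene left out (rows, with the gene and the annotation class of the region's centre, which may be a neighbouring gene's promoter) by percentile of the peak area (horizontal axis, 0 to 100), ordered by the cKO minus WT difference of means. Pax8 is at the top with −33.5 and a Sox4 region at the bottom with 23.3, and stars mark the 5 with a limma adjusted p under 0.05.

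The 5 regions that fell were at Pax8, Tbx6, Gata4, Pax6 and Gata3. The intronic region of Pax8 (chr2:24456751-24457228), a thyroid and kidney factor, had 46.6 and 53.4 in WT and 13.3 and 19.8 in cKO (difference −33.5, SE 8.64, limma adjusted p = 0.0102). The region that covers the promoter of Tbx6 (chr7:126779963-126781051), of paraxial mesoderm, had 48.0 and 67.9 in WT and 26.6 and 33.1 in cKO (difference −28.1, SE 8.33, limma adjusted p = 0.0239). These are the highest peaks of the region. In WT replicate 1 the peak at the promoter itself had only 18.9, below both cKO values, and with summed areas the difference was −15.8 (limma adjusted p = 0.118). The main Pax6 promoter (chr2:105675016-105675824) had 80.7 and 86.5 in WT and 65.1 and 60.1 in cKO (difference −21.0, SE 4.22, limma adjusted p = 0.00167), next to the lost Pax6 region. At Pax8 and Pax6 both cKO values were below both WT values, and both regions also passed with summed areas.

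The Gata4 and Gata3 calls need a qualification each. The region in the flank of Gata4 (chr14:63193277-63194145), the heart and endoderm factor, lay 170 bp from the TSS of Neil2, a DNA glycosylase gene. It had 63.7 and 72.0 in WT and 32.3 and 52.5 in cKO (difference −25.4, SE 7.75, limma adjusted p = 0.0276). The Gata3 promoter region (chr2:9879132-9880066) was among the strongest of the members, with WT percentiles of 92.4 and 92.8 and cKO percentiles of 89.6 and 89.3 (difference −3.14, SE 0.884, limma adjusted p = 0.0176), and its adjusted p was 0.0511 with lists of equal length. Without WT replicate 2, the adjusted p in limma was between 0.0784 and 0.237 for Pax8, Pax6, Gata4 and Gata3. Without WT replicate 1, Gata4 and Gata3 did not pass (limma adjusted p = 0.0795 and 0.0925), whereas Pax8 and Pax6 did. Without cKO replicate 1, Pax8, Gata4 and Tbx6 did not pass either (limma adjusted p = 0.0802, 0.314 and 0.142).

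Other regions had no overlap between the genotypes and did not pass the test as fitted. Those of Tbx15, Lhx8 and Sox12 below had a limma adjusted p of 0.00652 to 0.0468 with lists of equal length, quantile-normalized areas, summed areas or the replicate block, and of 0.118 to 0.648 without WT replicate 1, WT replicate 2 or cKO replicate 1. The Tbx15 promoter (chr3:99253666-99254235), of skeletal and skin development, had 37.3 and 49.7 in WT and 6.16 and 31.6 in cKO (difference −24.6, SE 9.75, limma adjusted p = 0.0893). The flank of Lhx8 (chr3:154331965-154332540), a gene of cholinergic neurons, held a region 1594 bp from its TSS that had 61.3 and 69.5 in WT and 37.7 and 53.0 in cKO (difference −20.0, SE 7.46, limma adjusted p = 0.0704). The Sox12 start region (chr2:152397149-152398337) had 71.8 and 74.3 in WT and 49.3 and 62.0 in cKO (difference −17.4, SE 6.20, limma adjusted p = 0.0579). In all 3, cKO replicate 1 was the lowest library. A Sox5 intron (chr6:144742344-144743101) had 42.0 and 41.6 in WT and 12.6 and 26.6 in cKO (difference −22.2, SE 9.03, limma adjusted p = 0.0994). A Tbx19 intron (chr1:165154059-165154586) had 55.1 and 58.7 in WT and 34.4 and 46.7 in cKO (difference −16.4, SE 7.66, limma adjusted p = 0.154). Here too cKO replicate 1 was the lowest library of both regions. The largest value in the other direction was in the window of Sox4 (chr13:28948617-28949030), with 2.04 and 27.7 in WT and 35.8 and 40.6 in cKO (difference 23.3, SE 10.1, limma adjusted p = 0.120). A Sox5 intron (chr6:144265582-144266153) had 47.1 and 52.0 in WT and 64.2 and 65.2 in cKO (difference 15.1, SE 6.85, limma adjusted p = 0.140). It passed with lists of equal length, quantile-normalized areas and the replicate block, and the Sox4 region passed with the last 2 of these. Sox5 thus held regions with higher and regions with lower cKO values. The 4 others with both cKO values above both WT values, at Lhx9, Sox5, Sox6 and Tbx10, differed by 3.84 to 11.6 percentile points. They did not pass as fitted, nor with summed areas or the replicate block. All 4 passed with lists of equal length and with quantile-normalized areas (limma adjusted p of 0.0177 to 0.0320). The Tbx10 one lay at the promoter of Nudt8.

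The Nkx genes, which pattern gut, brain and heart, had 5 regions and none was gained or lost. An intron of Nkx2-2 (chr2:147177766-147178588), of neural tube and islet cells, had 55.6 and 65.2 in WT and 62.3 and 43.4 in cKO, so that the genotypes overlapped (difference −7.49, SE 7.59, limma adjusted p = 0.558). The regions beside Nkx3-2 and Nkx6-3 overlapped between the genotypes as well.

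The strongest promoters of the members were those of Sox4 and Gata3. The Sox4 promoter region had 89.7 and 94.0 in WT and 91.7 and 92.8 in cKO, and the genotypes overlapped. The mean over the 4 libraries was 92.1 for Sox4 and 91.0 for Gata3, and it was 80.1 for Sox12 and 73.1 for Pax6. Tbx6, Tbx15 and Hoxa4 were also among the 8 genes whose promoter was called in every library.

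The member regions were rich in G and C. Their median GC content was 55.9%, compared with 48.3% over all union regions, and their median CpG observed over expected was 0.517, compared with 0.227. The lost member regions stood further from the lost regions of the genome: median GC was 60.4% against 47.4%, and CpG observed over expected was 0.763 against 0.187. Of the 17, 8 (47.1%) lay within 1 kb of a member's TSS, and 5.54% of all lost regions lay within 1 kb of a TSS. These shares are not alike in kind. Member regions were taken only at genes and their flanks, whereas 31.3% of all lost regions were intergenic. By centre, 23.5% of the lost member regions and 20.5% of all member regions were promoters, compared with 4.98% and 15.0% in the genome. The 2 lost Sox5 regions and the lost Tbx19 region were below 50% GC. Among regions with at least 55% GC, 13 of 43 member regions were lost (30.2%), compared with 3.68% of all 14222.

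Weak WT peaks were lost more often in the whole genome, so the WT percentile was set beside the loss. Of member regions called in both WT libraries with a mean WT percentile below 25, 11 of 19 were lost (57.9%), compared with 32.6% of all such regions. From 25 to 50, 5 of 18 were lost (27.8%), compared with 11.6%. From 50 to 75, 1 of 13 was lost, compared with 1.27%, and above 75, 0 of 14, compared with 0.0135%. With the GC limit of 55%, 8 of 11 and 4 of 8 member regions in the lower 2 classes were lost, compared with 28.7% and 8.88% of all regions. The member share was above the share of all regions in the lower 2 classes. The class from 50 to 75 rested on 1 lost member region, at Sox6, whose mean WT percentile of 50.7 lay at the edge of the class. With peaks above the list median, the lost share was 6.06% for the members and 7.06% for all regions. The numbers of member regions per class are small, and neighbouring Hox genes share a locus.

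**Figure D4:**
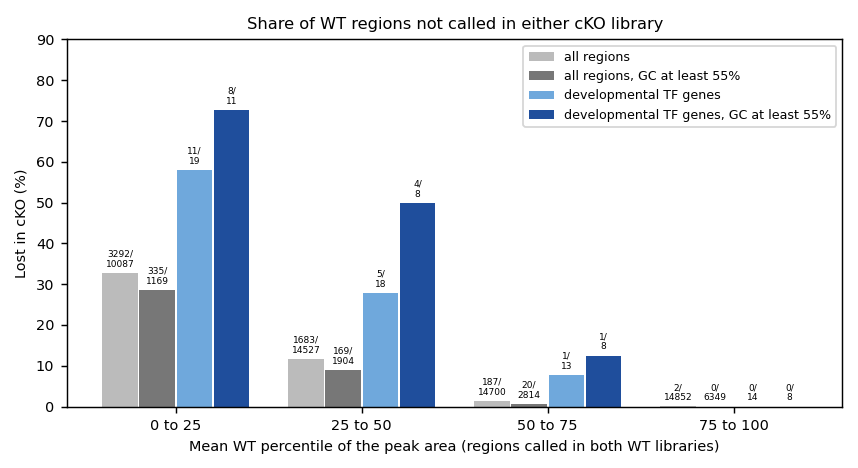
Share of regions called in both WT libraries that were called in neither cKO library (vertical axis, %), by mean WT percentile of the peak area (horizontal axis), for all regions (grey) and the developmental transcription factor genes (blue), with a darker bar for regions of at least 55% GC. Numbers above the bars are lost regions over regions, and in the class below 25 the member bars stand at 57.9% and 72.7%, compared with 32.6% and 28.7%.

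Motifs were searched on both strands of the 201 bases around each summit. AP-1 (TGACTCA) was in 7.23% of member regions and 13.5% of all union regions, PU.1 (GAGGAAGT) in 9.64% and 11.0%, and C/EBP (TTGCNNAA) in 12.0% and 12.3%. The RUNX letters AACCACA were in 3.61% and 8.38%. The letters AGATAA, bound by Gata factors, were in 6.02% and 7.15%. None of the 17 lost member regions held the AP-1 letters, and 7.28% of all lost regions did. With only 17 regions, 0 cannot be set apart from that share. Over all union regions the AP-1 letters were rarer at high GC content. They were in 16.7% of regions with 40 to 45% GC and in 2.70% of those with 60% or more.

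Other gene lists were described in the same way. The 39 other homeobox developmental genes (of the Dlx, Irx, Otx, Emx and other families) had 20 genes with a region, and 5 of their 40 regions were lost (12.5%; at En2, Otx1, Dlx3, Six4 and Pitx3) and 1 was gained. Of their 16 regions called in all 4 libraries, 2 were lower and 1 higher by limma, with a median difference of −10.3 percentile points. Among 12 macrophage marker genes, 11 of 76 regions were lost (14.5%), at Mertk, Irf8, Csf1r and Spi1, and 4 were gained. Of their 48 regions called in all 4 libraries, 25 were lower in cKO without overlap (52.1%) and 5 higher, 7 were lower and 2 higher by limma, and the median difference was −3.65 percentile points, next to −3.66 at the developmental genes. The 25 Polycomb and Trithorax genes, whose products silence or keep active the genes described here, all had a region, with 10 of 88 regions lost (4 of them at Jarid2) and 1 gained, and 3 lower and 6 higher by limma. The 11 Hox cofactor genes of the Meis, Pbx, Pknox and Tgif families had 1 of 33 regions lost and 4 gained, 2 of these at Pknox2, and 4 lower and 1 higher by limma. Stroma markers had regions at 4 of 9 genes, with 10 and 14 regions called in WT and 7 and 11 in cKO, and 2 of 16 were lost, both at Pdgfrb. The 5 endothelial genes had 10 and 11 regions in WT and 10 and 13 in cKO. In bulk samples, fewer cells with an open site and less opening per cell cannot be told apart.

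**Figure D5:**
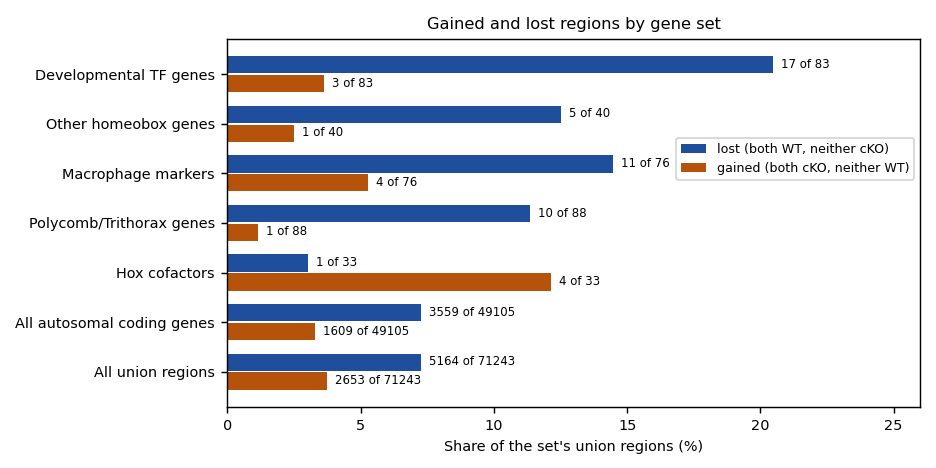
Share of union regions lost (blue) and gained (orange) in cKO (horizontal axis, %) for the developmental transcription factor (TF) genes, 4 other gene lists, all autosomal coding genes and all regions, with numbers of regions at the bars. The lost share was 20.5% at the developmental genes and 7.25% over all regions, and the gained share was highest at the Hox cofactors, with 4 of 33.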

How the data were processed

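ATAC-seq was performed on BMDMs of 2 WT and 2 H3.3cKO samples, grouped by their titles and genotype labels. Per the study's methods and the submitters' processing notes, the authors aligned paired reads to mm10 with Bowtie2 2.5.1 and ran Genrich at default settings on every library by itself. Read filters, duplicate removal and the shift of read ends were not given in the sources used here. The deposited peak signal is the area under the −log10 p curve, which depends on depth, and every listed area exceeded 200, the limit of the caller. The deposited −log10 p-value at the summit was used only for an alternative, and the deposited score was not used. Depth is unknown, so no interval for counting error was given.

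Union regions were made by merging peaks that shared 1 bp or more, in Python (pandas 2.3.3, numpy 2.4.6). A region took the highest percentile of its peaks in a library. Regions called in all 4 libraries were fitted together in limma 3.58.1 with trend (R 4.3.3), with Benjamini-Hochberg adjustment at 0.05. Library counts and medians were tested with an exact permutation test, two-sided (6 possible label assignments), which cannot go below 0.333. Scripts were tested on simulated data. Single results for 2 genes are not reported here, and they stay in the counts. The prefix had to be followed by a digit, so genes such as Paxip1 were left out, as were 3 X-linked genes. Regions were classified by their centre as promoter, exon, intron or intergenic with the GENCODE M21 basic annotation, and sequences came from RefSeq GRCm38.p6. Gene lists and members were chosen with earlier results of these data known. Genes named were members with a gained or lost region or a limma call, the 10 strongest promoters (8 were called in every library), the 10 largest differences without overlap, the Hox clusters as groups, and H3f3a and H3f3b. Genes without a region, marker genes, the Nkx genes and the genes behind the counts of other lists were named after their values were seen. Alternatives were peaks above the list median, lists of equal length, windows without flank or with 20 kb, calls by 50% cover, promoters of 500 bp on each side, quantile-normalized log2 areas, summed areas, the summit −log10 p, a replicate block and leaving out each library.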

Additional observations from a re-analysis of the deposited data

How the results depend on the processing

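The differences in member genes with a region, in called promoters and in median percentile kept their sign under the alternatives run. The limma counts moved, from 1 to 13 lower and from 0 to 7 higher. Single differences that had not passed could change sign, as at Nkx2-2 (1.95 without cKO replicate 2, and also above 0 with summed areas). The difference in member genes with a region lay between −14.5 and −10.5 when each library was left out in turn, that in called promoters between −4.5 and −3.5 and that in median percentile between −14.3 and −4.37. The lost count was 18 to 26 in these runs (21.7% to 31.7%, beside 7.66% to 14.4% of all regions). The gained count was 3 to 4, beside 3.88% to 9.16% of all regions. With peaks above the list median, 2 of 33 regions were lost (6.06%) and 0 gained, beside 7.06% and 3.81% of all regions. In this setting 1 of 18 member regions was lower by limma, and so were 1930 of all regions, for which no share was computed. With lists of equal length, 14 of 69 regions were lost (20.3%, beside 7.30% of all regions), 13 of them among the 17. By limma 9 of 40 member regions were then lower and 6 higher, beside 7404 and 7409 of all regions. Tbx19, Sox30, Hoxb4 and Hoxa3/Hoxa6/Hoxa7 were not among those 13. Without a flank 3 of 26 were lower by limma, and with 20 kb 8 of 75 were lower and 3 higher. The shares of all regions stayed at 11.3% lower and 5.68% higher. Quantile normalization gave 10 of 43 member regions lower and 7 higher, beside 8400 and 8210 of the 44820 regions. Without Sox5 and Sox6, chosen after seeing the data, 1 region was gained. Replicate numbers are not stated to mark a shared batch, and deviations of same-numbered libraries correlated at 0.295 over the 44820 regions. With the replicate block, 13 member regions were lower and 2 higher by limma, beside 23.0% and 12.9% of all regions. The cause of these changes was not tested, and the unknown depth limits what a missing peak shows.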

Other observations

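The X-linked genes Gata1, Sox3 and Tbx22, which the name rule would have included on an autosome, had 0 regions in all 4 libraries. Gata1 is the erythroid and megakaryocyte counterpart of Gata2 and Gata3.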
